A study of Homo sapiens with 6 samples.

Results

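The clustered histone genes are the replication-dependent genes for the linker histone H1 and the core histones H2A, H2B, H3 and H4. Their members here were chosen by symbol, as the protein-coding RefSeq genes H1-1 to H1-6 and those named H2AC, H2BC, H3C or H4C followed by a number. The rule found 70 of 20037 protein-coding genes on GRCh38, of which 6 code for H1, 17 for H2A, 19 for H2B, 13 for H3 and 15 for H4. Chromosome 6 carried 55 of them, chromosome 1 carried 13, and H4C16 on chromosome 12 and H2BC12L on chromosome 21 stood alone.

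The study asked how the nuclear matrix protein HNRNPU acts in human pluripotent stem cells, and these libraries measured open chromatin by ATAC-seq, in which the transposase Tn5 cuts and tags accessible DNA. All 6 libraries came from the H1 human embryonic stem cell line, whose name is unrelated to histone H1, grown in mTeSR1 on Matrigel, transduced with an shRNA virus and selected with puromycin. A hairpin against HNRNPU was carried by 4 libraries (shHNRNPU #1 and shHNRNPU #2, 2 each) and a hairpin against luciferase, which these cells lack, by the 2 control libraries (shLUC). The labels give no time after selection and do not say whether the repeats of a hairpin were separate cultures, so the spread between them may be technical, and the HNRNPU level is not measured by these data.

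Replication-dependent histone genes are short, mostly lack introns, and are transcribed as cells copy their DNA, which in pluripotent stem cells takes up much of a fast cell cycle. Their transcripts end in a conserved stem-loop bound by SLBP rather than in a poly(A) tail. NPAT gathers the clusters into histone locus bodies, nuclear bodies in which the genes are transcribed and their transcripts processed. H2A and H2B genes commonly lie head to head around a shared promoter, and the CCAAT box, the TATA box, the octamer of H2B promoters and the AC box of H1 promoters are textbook elements of these promoters.

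Each library was a list of 52168 to 63519 summits, 1 per peak, each with a score, and read depth is unknown. The score was read here, from its layout and lowest values, as the −log10 q-value of the peak caller. A gene was called open in a library where a summit lay within 2000 bp of either of its ends, and its level was the percentile of its best summit among all summits of that library, from 0 to 100. With the score read so, a percentile is a rank by confidence of the peak call, not an amount of accessibility. A gene without a summit is one where none was called. In bulk lists, fewer cells with an open site and a less open site in each cell cannot be told apart. Of 9 pluripotency markers, 8 were in the gene table and all 8 were open in all 6 libraries. POU5F1 was at percentiles 87.0 to 92.3, SOX2 at 49.4 to 80.8 and NANOG at 38.8 to 77.1. Of 10 genes of other lineages, 4 were open in all 6 and 4 in none. The 4 open ones were SOX17 (41.2 to 68.6), TBXT (59.4 to 83.0), PAX6 (35.6 to 62.1) and CDX2 (44.5 to 72.4). The ranges of SOX2 and NANOG overlapped those of these 4 genes.

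Promoter sequences are shown for genes on which the results below turn. They are RefSeq sequences of GRCh38.p14, 5′ to 3′ on the gene's own strand, ending at the base before the gene start, up to 250 bases long and stopping where a neighbouring gene begins. Capitals mark matches on either strand to 4 motifs. The CCAAT box was searched as CCAAT and, for the other strand, as ATTGG. The TATA box was searched as TATAAA and, likewise, as TTTATA, and these forms can overlap each other. The octamer was searched by its letters ATTTGCAT, which on the other strand read ATGCAAAT, and the AC box of H1 genes by AAACACA, which there reads TGTGTTT. A match is a description of the letters and not a measured site. The first 3 lie between head-to-head H2A and H2B genes. H2AC11 faced H2BC11 across the site with the highest mean rank of all members (chr6:27132796-27133042, plus strand), H2AC6 faced H2BC4 across one whose ranks did not overlap between groups (chr6:26123927-26124171, plus strand), and H2AC1 faced H2BC1 across a gap without a summit in any library (chr6:25726563-25726776, minus strand).
H2AC11: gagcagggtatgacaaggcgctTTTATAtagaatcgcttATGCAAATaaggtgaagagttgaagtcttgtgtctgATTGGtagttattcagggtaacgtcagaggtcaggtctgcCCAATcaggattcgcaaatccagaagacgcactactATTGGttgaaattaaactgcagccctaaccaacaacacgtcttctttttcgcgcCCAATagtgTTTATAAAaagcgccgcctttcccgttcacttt
H2AC6: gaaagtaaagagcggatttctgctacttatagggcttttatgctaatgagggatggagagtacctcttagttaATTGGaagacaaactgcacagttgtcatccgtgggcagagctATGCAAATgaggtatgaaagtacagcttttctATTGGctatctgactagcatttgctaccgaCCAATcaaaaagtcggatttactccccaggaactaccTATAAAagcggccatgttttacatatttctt
H2AC1: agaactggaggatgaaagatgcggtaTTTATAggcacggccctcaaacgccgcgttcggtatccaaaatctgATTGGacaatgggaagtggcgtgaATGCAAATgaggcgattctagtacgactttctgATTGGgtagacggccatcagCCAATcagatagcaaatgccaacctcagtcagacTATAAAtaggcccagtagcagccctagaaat

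All 3 gaps held CCAAT, octamer and TATA matches, with 8 matches at H2AC11, 5 at H2AC6 and 6 at H2AC1, so these letters were present with and without a called summit. The next set is of linker histone promoters, shown because the family was split: H1-4 was open in all 6 libraries (chr6:26156079-26156328, plus strand), whereas H1-1 (chr6:26017788-26018037, minus strand) and H1-6 (chr6:26108136-26108385, minus strand) were open in none.
H1-4: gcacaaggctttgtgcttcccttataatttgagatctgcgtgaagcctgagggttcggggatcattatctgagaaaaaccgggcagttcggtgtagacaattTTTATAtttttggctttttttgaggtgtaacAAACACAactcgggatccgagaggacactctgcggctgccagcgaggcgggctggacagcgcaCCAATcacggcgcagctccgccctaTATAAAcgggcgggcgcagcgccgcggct
H1-1: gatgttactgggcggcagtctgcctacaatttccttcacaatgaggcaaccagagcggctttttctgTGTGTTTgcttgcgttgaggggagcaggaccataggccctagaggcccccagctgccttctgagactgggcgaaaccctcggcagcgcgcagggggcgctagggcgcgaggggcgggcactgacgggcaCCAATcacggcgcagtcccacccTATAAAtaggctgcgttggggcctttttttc
H1-6: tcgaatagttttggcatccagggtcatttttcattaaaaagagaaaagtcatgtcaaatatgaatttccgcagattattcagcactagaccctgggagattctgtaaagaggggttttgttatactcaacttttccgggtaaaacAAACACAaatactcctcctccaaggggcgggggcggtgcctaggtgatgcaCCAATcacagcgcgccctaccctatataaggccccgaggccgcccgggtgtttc

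All 3 carried a CCAAT match and the letters of the AC box. At H1-1 the AC box match was on the other strand, at −183 from the start. At H1-4 and H1-6 it was on the gene's own strand, at −117 and −105. H4 promoters are shown as the family in which CCAAT was mostly absent, with H4C4 open in all 6 libraries (chr6:26189113-26189362, minus strand) and H4C7 open in none (chr6:26246997-26247246, minus strand). H4C11 (chr6:27823842-27824091, plus strand) and H4C12 (chr6:27831561-27831810, minus strand) are near copies with a summit in 5 and 3 libraries. H2AC18 (chr1:149842751-149843000, minus strand) stands for the duplicated genes of chromosome 1, where its copy H2AC19 shared 299 of 300 promoter bases in 1 run.
H4C4: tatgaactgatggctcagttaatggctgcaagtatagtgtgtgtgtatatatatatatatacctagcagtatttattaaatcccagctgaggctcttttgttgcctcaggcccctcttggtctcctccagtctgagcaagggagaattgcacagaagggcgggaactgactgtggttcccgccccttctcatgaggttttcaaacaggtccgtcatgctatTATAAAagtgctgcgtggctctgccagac
H4C7: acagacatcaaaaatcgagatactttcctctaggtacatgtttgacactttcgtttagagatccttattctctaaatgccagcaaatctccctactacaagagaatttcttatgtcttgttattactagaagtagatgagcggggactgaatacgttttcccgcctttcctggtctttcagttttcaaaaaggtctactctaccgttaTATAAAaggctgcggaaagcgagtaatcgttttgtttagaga
H4C11: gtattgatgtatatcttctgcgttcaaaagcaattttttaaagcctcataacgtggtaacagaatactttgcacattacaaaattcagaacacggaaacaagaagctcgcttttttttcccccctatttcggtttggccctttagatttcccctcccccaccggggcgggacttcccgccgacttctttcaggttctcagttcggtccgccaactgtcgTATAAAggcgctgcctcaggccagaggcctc
H4C12: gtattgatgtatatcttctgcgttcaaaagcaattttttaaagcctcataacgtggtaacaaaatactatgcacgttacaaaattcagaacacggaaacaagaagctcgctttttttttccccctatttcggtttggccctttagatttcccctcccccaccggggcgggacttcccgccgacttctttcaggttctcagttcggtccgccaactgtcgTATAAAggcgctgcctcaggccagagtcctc
H2AC18: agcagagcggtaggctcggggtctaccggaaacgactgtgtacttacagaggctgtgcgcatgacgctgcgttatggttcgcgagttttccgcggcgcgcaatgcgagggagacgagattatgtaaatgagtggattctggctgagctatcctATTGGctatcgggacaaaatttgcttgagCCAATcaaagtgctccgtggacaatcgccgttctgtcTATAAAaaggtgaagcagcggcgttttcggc

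The clustered histone genes were open in most libraries. The number of open members was 57 and 59 with shHNRNPU #1, 56 and 56 with shHNRNPU #2, and 55 and 56 with shLUC, or 78.6% to 84.3% of 70. All 6 libraries called 54 members open (77.1%), against 68.5% of all protein-coding genes. No library called 11 members open (15.7%), against 20.2% of all genes. The other 5 had a summit in some libraries only, with H4C11 and H3C12 in 5, H4C12 in 3, and H2AC19 and H2BC3 in 1.

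**Figure D1:**
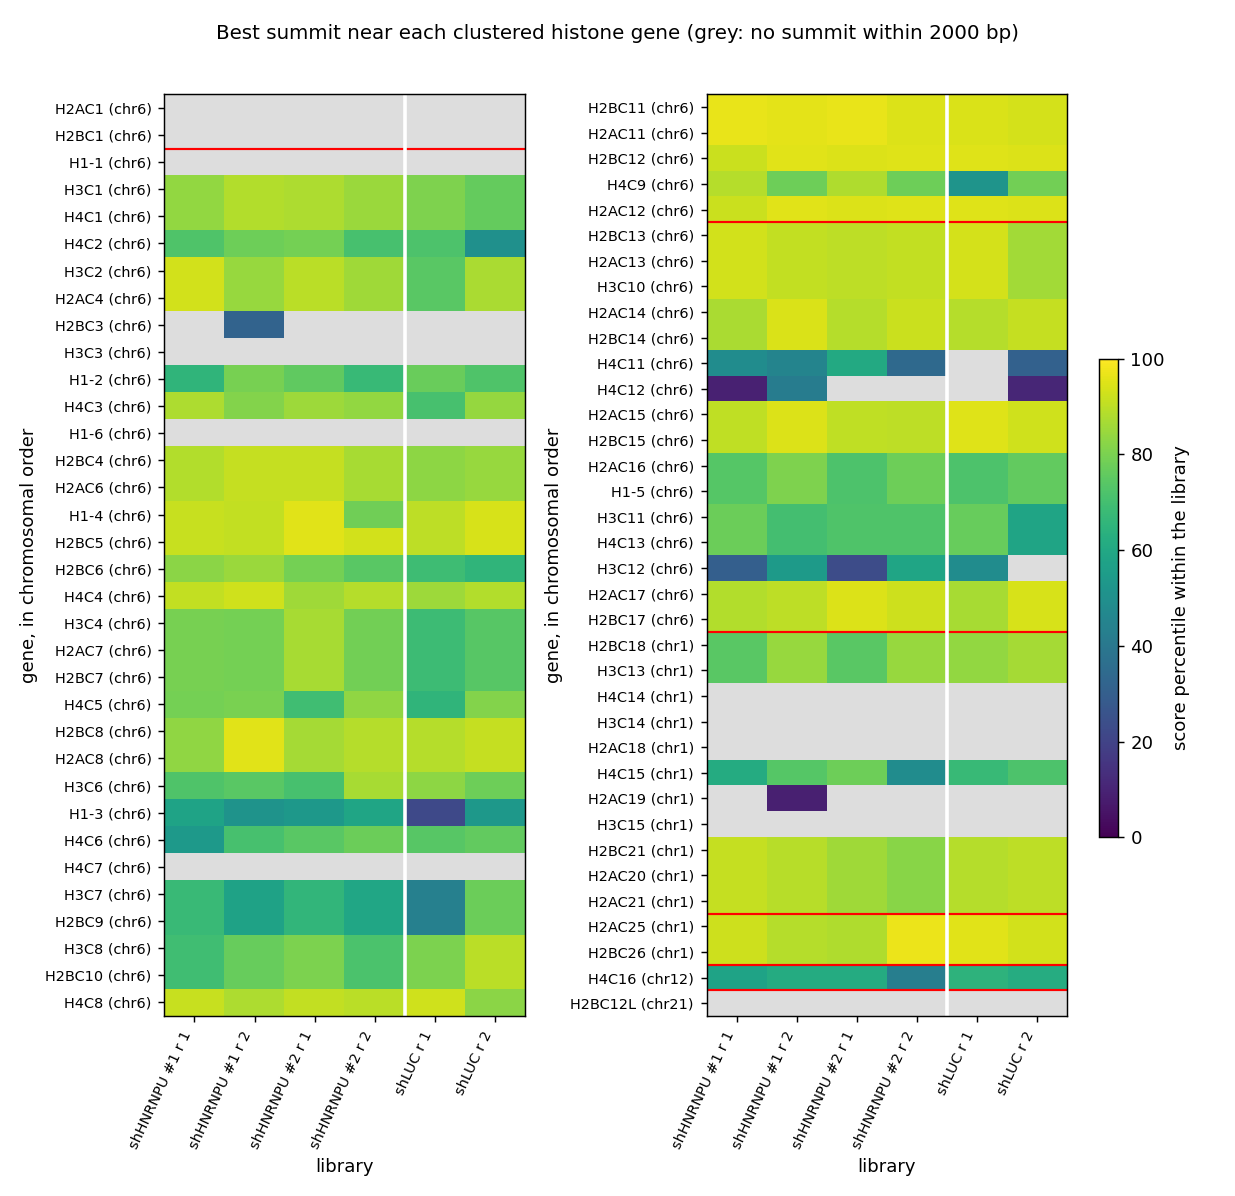
Score percentile (colour, 0 to 100) of the best summit within 2000 bp of each of the 70 histone genes (rows, in chromosomal order) in the 6 libraries (columns, r for replicate); grey cells had no summit, red lines part blocks of genes over 200000 bp apart, and a white line parts shHNRNPU from shLUC. Rows of 1 colour throughout a group of neighbours are genes that share a summit, and 11 rows are grey in all 6 libraries.

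Along the chromosomes the members fell into 8 blocks when neighbours over 200000 bp apart were parted. The largest, chr6:26017032-26285534, held 32 genes from H1-1 to H4C8 in 268.5 kb and had 27 open in all 6 libraries. A block open throughout held the 5 genes from H2BC11 to H2AC12 (chr6:27132316-27147562), and its median percentile was the highest of the multigene blocks of that chromosome, at 91.9 to 95.5 over the libraries. A further block, chr6:27807479-27893891, held 16 genes from H2BC13 to H2BC17, of which 13 were open in all 6 and none was closed in all. The small pair H2AC1 and H2BC1 (chr6:25726063-25727345), whose proteins are known as testis histones, had no summit in any library.

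On chromosome 1 the 11 genes from H2BC18 to H2AC21 (chr1:149782689-149887965) had 6 open in all libraries and 4 in none. The pair H2AC25 and H2BC26 (chr1:228457364-228458558) was open in all 6, with a shared summit at percentiles 88.0 to 97.1. H4C16, the single H4 gene of chromosome 12 (chr12:14770720-14771131), was open in all 6, and H2BC12L of chromosome 21 (chr21:43565182-43565648) in none. Among the 20 other protein-coding genes that lie within the span of the chromosome 6 members, 12 to 14 were open per library and 12 were open in all 6 (60.0%), against 45 of 55 members (81.8%).

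**Figure D2:**
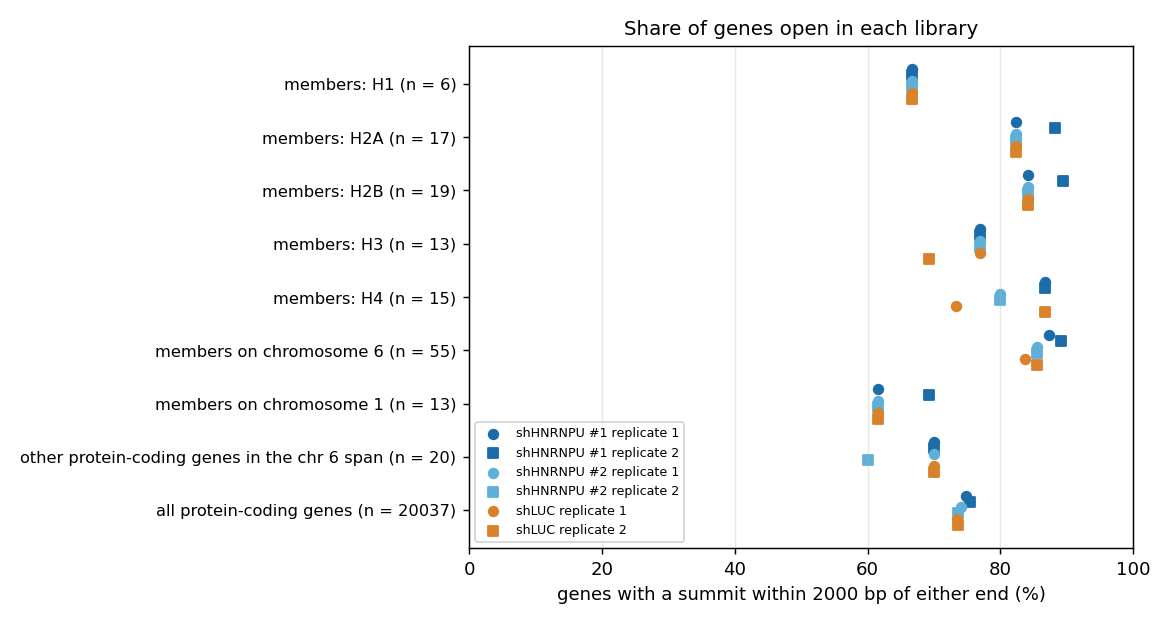
Percent of genes with a summit within 2000 bp of either end (x axis, 0 to 100), 1 point per library, for the 5 histone families, the members on chromosomes 6 and 1, the other genes within the chromosome 6 span and all 20037 protein-coding genes; colours are hairpins, circles replicate 1 and squares replicate 2. The points of shLUC overlap those of shHNRNPU in most rows, and chromosome 6 members (83.6% to 89.1%) lie above chromosome 1 members (61.5% to 69.2%) in every library.

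H2A and H2B genes ranked above the other families. Open in all 6 were 4 of 6 H1 genes, 14 of 17 H2A, 16 of 19 H2B, 9 of 13 H3 and 11 of 15 H4. The median percentile of the open genes ran from 89.0 to 90.9 over the libraries for H2A and from 88.5 to 90.6 for H2B. H3 medians ran from 75.9 to 81.7, H4 medians from 72.1 to 78.5 and H1 medians from 69.7 to 80.1. The H2A and H2B ranges thus lay above those of the other 3 families in all libraries, and H2A and H2B genes often share a summit, so their medians are not separate measurements. Taking instead the summit nearest the start, within 500 bp, the medians ran from 87.3 to 90.2 for H2A, 87.9 to 90.6 for H2B, 68.7 to 77.5 for H4, 51.8 to 71.7 for H3 and 47.4 to 63.6 for H1, so H1 and H3 values above are in part those of neighbouring genes. Over all open members the median ran from 83.0 to 86.8, and over all open protein-coding genes from 82.4 to 85.6, with overlapping ranges.

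The highest mean ranks belonged to H2A and H2B genes. The site shared by H2BC11 and H2AC11 had percentiles of 96.7 and 95.9 with shHNRNPU #1, 96.7 and 94.6 with shHNRNPU #2, and 94.3 and 93.7 with shLUC. The site shared by H2BC12 and H2AC12 had 91.9 and 95.5, then 94.9 and 95.1, and with shLUC 95.1 and 94.7, so its groups overlapped. H2BC5, which codes for another H2B, followed with a mean of 92.5. The summit at its start was the best one within 2000 bp of its neighbour H1-4 in all 6 libraries. In shHNRNPU #2 replicate 2 that summit was at 78.4, and the best summit of H2BC5, at 93.0, lay elsewhere.

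The linker histones bind the DNA between nucleosomes, and the best summit within 2000 bp was not always at their own start. For H1-4 it was the summit at the start of H2BC5 in all 6 libraries, at 91.6 and 91.0 with shHNRNPU #1, 95.4 and 78.4 with shHNRNPU #2, and 90.1 and 94.0 with shLUC. The summit at H1-4's own start was at 65.2 and 64.4, 53.1 and 56.4, and with shLUC 49.7 and 63.6. By either summit the groups overlapped, with shHNRNPU lower on average by the best one (a difference of −2.98) and higher within 500 bp (3.13).

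For H1-5 the best summit was that at the start of H2AC16 in all 6 libraries, at 73.8 and 80.6, 72.0 and 78.0, and with shLUC 72.2 and 76.2. Its own start had summits at 44.8 and 41.2, 61.0 and 20.3, and 45.0 in shLUC replicate 1, whereas in shLUC replicate 2 the nearest lay 2335 bp downstream. The difference between groups was 1.91 by the best summit and 19.3 within 500 bp, where the missing summit counts as 0, and the groups overlapped in both. H1-2 had 65.5 and 79.6, then 75.6 and 67.6, and with shLUC 77.1 and 72.5, with overlapping groups. H1-3 had 57.9 and 51.2, 53.4 and 58.8, and 22.3 and 53.4, all from summits at its own start, with 1 shLUC library far below the other 5 and the other within the range of shHNRNPU. H1-1, and H1-6, which is known as the testis linker histone H1t, had no summit.

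The remaining members without any summit were H2AC1, H2BC1, H3C3 and H4C7 on chromosome 6, H4C14, H3C14, H2AC18 and H3C15 on chromosome 1, and H2BC12L. The lowest mean percentiles above 0 belonged to genes found in some libraries only. A missing summit counts as 0 in the mean, so this order follows in part from the measure. H2AC19 was at 8.79 and H2BC3 at 31.7, both in shHNRNPU #1 replicate 2 alone, which is also the longest list. H4C12 was at 9.22 and 42.0 with shHNRNPU #1 and at 10.6 in shLUC replicate 2. H3C12 had 30.3 and 54.3 with shHNRNPU #1, 23.4 and 58.8 with shHNRNPU #2, and 48.6 in shLUC replicate 1, with none in shLUC replicate 2. Each of these 4 was therefore either found in both groups or in a single library.

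Summits lay at the gene starts. A start position was given for 64 members, of which 54 had a summit in some library, making 310 pairs of a gene and a library. The summit nearest the start lay a median of 50 bp upstream of it (median position −50, quartiles −120 and −6.25), and 94.5% of the pairs were within 500 bp. By family the median position was −106 for H2A, −88 for H2B, −30.5 for H3, −9.5 for H4 and +47 for H1. Upstream summits made up 96.2% of the H2A pairs and 91.8% of the H2B pairs but 16.7% of the H1 pairs. For a given gene open in all 6 libraries the summit moved over a median range of 112 bp between libraries.

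**Figure D3:**
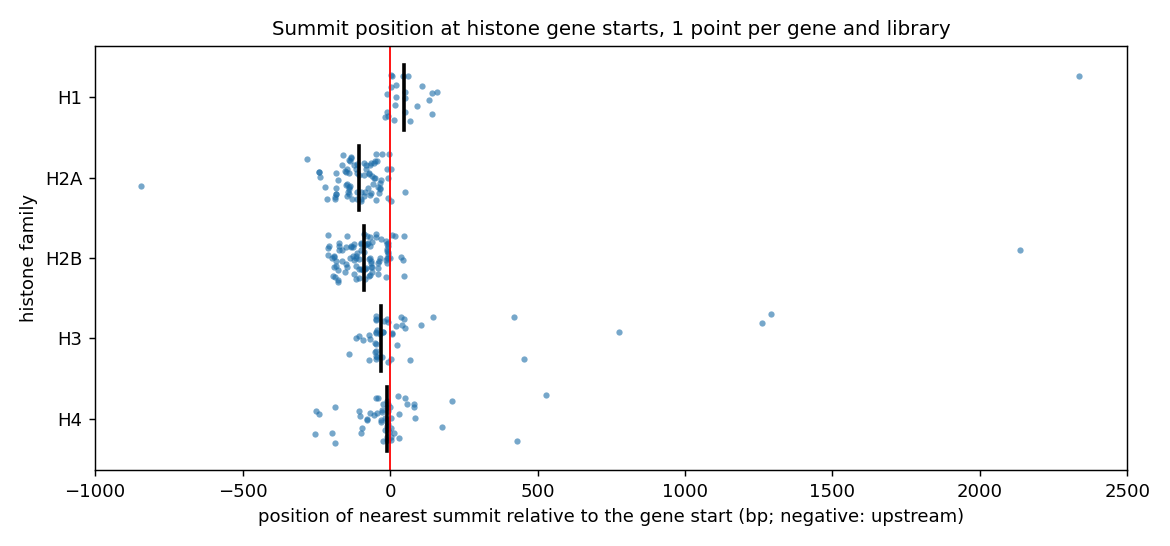
Position of the nearest summit relative to the gene start (x axis, bp, negative upstream), 1 point per gene and library, by histone family (y axis), with a black bar at the family's median and a red line at the start. H2A and H2B points lie mostly upstream (medians −106 and −88 bp) and H1 points mostly downstream (+47 bp). The points of H4C15, over 15000 bp downstream, are beyond the axis. So are upstream points of H3C10 (−1911 and −1916 bp) and H2BC9 (−1028 bp).

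This position matches the layout of the head-to-head genes. By the first start listed for each gene there were 13 such pairs with starts less than 1000 bp apart. Among them, H3C4 with H2BC7 had the same gap as H2AC7 with H2BC7. Of the 13, 11 were of an H2A with an H2B gene, with starts 194 to 248 bp apart. A summit lay between the starts in all 6 libraries for 8 of these 11 pairs, in 5 libraries for H2BC8 with H2AC8 and also for H2AC15 with H2BC15, and in none for H2AC1 with H2BC1. Each library held 51 to 59 distinct summits near members, and 58.8% to 61.5% of them were near 2 or 3 members. Counts of genes in the clusters are therefore larger than counts of open sites.

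H4C15 was an exception to the position at the start. Its listed span of chr1:149844488-149861240 is far longer than that of other H4 genes, and its summit lay 15488 to 15550 bp downstream of the start, by its other end. When only the start counted, within 500 bp, 44 of 64 members (68.8%) were open in all 6 libraries and 13 in none, against 62.0% of all 15842 genes with a start open in all 6.

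Of the promoters, 64 members had one in the RefSeq table, and H2BC12L, H4C1, H4C3, H2AC12, H3C11 and H3C12 were not matched. Within 250 bases upstream, CCAAT was found in 54 of 64 (84.4%), against 34.5% of all 15842 promoters of this length. It was in every H1, H2A, H2B and H3 promoter matched but in 3 of 13 of H4. TATAAA was in 42 of 64 (65.6%), against 9.23% of all, and of 40 matches on the gene's strand 34 began 40 to 20 bases before the start. The octamer was in 26 of 64 (40.6%), against 1.65%, with 11 of 16 H2A, 14 of 18 H2B, 1 of 11 H3 and no H1 or H4 promoter. The H3 promoter was that of H3C4, whose first listed start, the one used here, is also that of H2AC7. Its octamer and CCAAT matches are therefore those of the H2AC7 promoter. The letters of the AC box were in all 6 H1 promoters and in no other member, against 3.69% of all promoters. At H1-1 the only match was on the other strand, at −183 from the start. Windows of head-to-head genes overlap, so 1 match can count for both.

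Each motif was found among both open and closed members. Of the 50 matched members open in all 6 libraries 44 had CCAAT, 31 TATAAA, 23 the octamer and 4 the AC box. Of the 10 open in none 8 had CCAAT, 7 TATAAA, 2 the octamer and 2 the AC box. These counts are descriptions, and neighbouring genes share letters.

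Of the 10 members with a promoter but no summit in any library, 4 shared a run of over 100 bases with another member and 6 did not. Promoters whose windows overlap on the chromosome, such as those of H3C4 and H2AC7, were not compared with each other. The longest run of bases that a 300-base promoter shared exactly with another member's was 300 for H4C14 with H4C15, 299 for H2AC18 with H2AC19, 296 for H3C14 with H3C15 and 126 for H4C11 with H4C12. Of these 8 genes 4 were open in none of the libraries and only H4C15, by the site far from its start, in all 6. Among the other 56, with a median shared run of 14 bases, 49 were open in all 6 and 6 in none. Reads from identical copies cannot be placed uniquely, and how such reads were treated is not given in the sources used here. Its part in these missing summits was not tested.

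**Figure D4:**
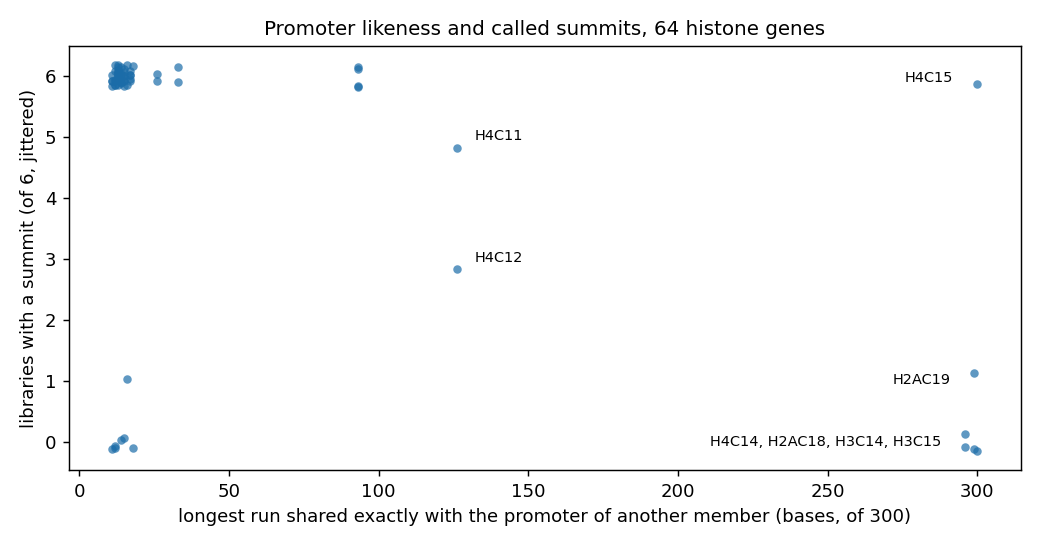
Number of libraries with a summit (y axis, 0 to 6, jittered) against the longest run of bases shared exactly with the promoter of another member (x axis, of 300 bases), 1 point for each of 64 histone genes. Of the 8 genes with shared runs over 100 bases only H4C15 was open in all 6 libraries, whereas most points with short runs lie at 6. Promoters whose windows overlap on the chromosome were not compared with each other.

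Genes that serve the histone clusters were open throughout. All 27 of the listed factors of histone transcription and 3′ end processing had a summit in all 6 libraries, with NPAT, the scaffold of the histone locus body, at 99.6 to 99.9 and HINFP, which binds H4 promoters, at 98.8 to 99.9. SLBP, the stem-loop binding protein, was at 70.0 to 83.7. Of 12 other histone genes, listed as variants, 11 were open in all 6, and H3-5 in none. The median percentile of the open variants ran from 84.3 to 90.0 over the libraries. H2AZ2, for an H2A.Z variant made throughout the cell cycle, was at 98.1 to 99.6, above the range of every clustered member. H2AX, at 97.3 to 98.9, also lay above them, whereas MACROH2A1 was at 47.8 to 78.5 and MACROH2A2 at 51.4 to 75.9.

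The comparison of shHNRNPU with shLUC asked whether the hairpins against HNRNPU changed which histone genes were open and how their sites ranked. The number of open members averaged 57.0 ± 1.41 (SD, n = 4) with shHNRNPU and 55.5 ± 0.707 (n = 2) with shLUC, a difference of 1.5 genes, and 2 of the 4 shHNRNPU libraries had the same count as an shLUC library. On chromosome 6 the means were 47.75 ± 0.957 and 46.5 ± 0.707, and on chromosome 1 they were 8.25 ± 0.5 and 8 in both shLUC libraries. Of all protein-coding genes 14921.2 were open on average with shHNRNPU and 14738 with shLUC. No member was open in all 4 shHNRNPU libraries and in no shLUC library, a pattern that 0.369% of all genes had, and none the reverse, which 0.165% had. With 15 assignments of the libraries the smallest two-sided exact permutation p is 0.133, so no single gene could pass 0.05, and differences are given as groups that do not overlap.

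By rank, more members were higher than lower with shHNRNPU, as among all genes. Of the 59 members with a summit in any library, 11 (18.6%) had all 4 shHNRNPU percentiles above both of shLUC, against 14.0% of all genes with a summit, and 1 had all 4 below, against 6.81%. Ranked among genes instead of among summits, the members divided 11 to 3 and all genes 11.1% to 8.72%. The 11 members shared 6 sites, and of 38 distinct best sites of the members 15.8% were higher and 2.63% lower, against 13.9% and 6.77% of the sites of all genes. The mean percentile was higher with shHNRNPU for 38 of 59 members (64.4%), against 59.8% of all genes, and the median difference was 1.91 against 0.985. These shares lay near the background, so they are not read as a result about the members. The median percentile of the open members was 85.0 ± 1.24 (n = 4) with shHNRNPU and 84.6 with shLUC, a difference of 0.463 that turned to −2.19 when ranked among genes and to −1.13 without shLUC replicate 1.

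The widest gap between the groups was at H2BC6, an H2B gene of the large block of chromosome 6 (chr6:26183761-26184230). Its percentiles were 82.7 and 85.0 with shHNRNPU #1, 79.1 and 74.5 with shHNRNPU #2, and 69.0 and 65.3 with shLUC. All 4 shHNRNPU values lay above both shLUC values, with a mean difference of 13.1, which was 16.7 for shHNRNPU #1 and 9.61 for shHNRNPU #2 against the same shLUC libraries (exact permutation p = 0.133). The groups also stayed apart under a minimum score of 5, lists of one size, distances of 500 and 1000 bp, the gene start alone, the nearest gene alone and ranks among genes. H4C11, an H4 gene, ranked low, at 48.5 and 45.2, 60.9 and 34.2, and in shLUC at 31.1 in replicate 2 with no summit in replicate 1. Its groups stayed apart under the same settings, and its summits, the weakest of the 11, had scores of 4.56 to 8.99.

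At H3C4, H2AC7 and H2BC7, which share 1 site, the percentiles were 79.6 and 79.1 with shHNRNPU #1, 86.8 and 78.7 with shHNRNPU #2, and 68.4 and 74.0 with shLUC, a mean difference of 9.82. For H3C4 that site was not always the summit nearest to a listed start of the gene. The nearest was at 41.2 and 58.1 with shHNRNPU #1, 86.8 and 11.9 with shHNRNPU #2, and 42.5 and 74.0 with shLUC. By the nearest summit the groups of H3C4 overlapped. H3C1 and H4C1, the genes next to H1-1, shared a site at 83.9 and 88.4, 87.6 and 85.1, and with shLUC 80.8 and 76.6, a difference of 7.59. At H2BC4 and H2AC6 the values were 88.5 and 91.1, 91.1 and 86.7, and with shLUC 83.0 and 84.5, a difference of 5.65. All 3 sites lie in the block of 32 genes, and both hairpins lay above shLUC at each. With summits counted within 500 bp only, H3C1 overlapped between groups with a difference of 1.07, and so did H2BC4 and H2AC6, whereas H4C1 and the genes of the H3C4 site stayed apart. H2AC6 also overlapped at 1000 bp. With each summit given to its nearest gene, H3C1, H2AC6, H3C4, H2AC7 and H2BC7 overlapped. At H2BC11 and H2AC11, whose percentiles are given above and which overlapped under the nearest gene alone, the difference was 2.00, and the scores were 52.8, 48.2, 44.1 and 44.5 with shHNRNPU and 37.2 and 34.1 with shLUC. Scores are not normalised between libraries, so this gap in score is not a measure of accessibility.

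H4C16 was the single member with all shHNRNPU percentiles below shLUC. It had 57.9 and 61.5 with shHNRNPU #1, 61.3 and 42.9 with shHNRNPU #2, and 64.7 and 62.1 with shLUC, a mean difference of −7.50. The gap between the groups was less than 1 percentile and the groups overlapped under a minimum score of 5 and with lists of one size. The smallest adjusted p over the 15981 genes was 0.641 (exact permutation test with Benjamini-Hochberg adjustment), no gene had an unadjusted p under 0.05, and with 15 assignments none could.

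**Figure D5:**
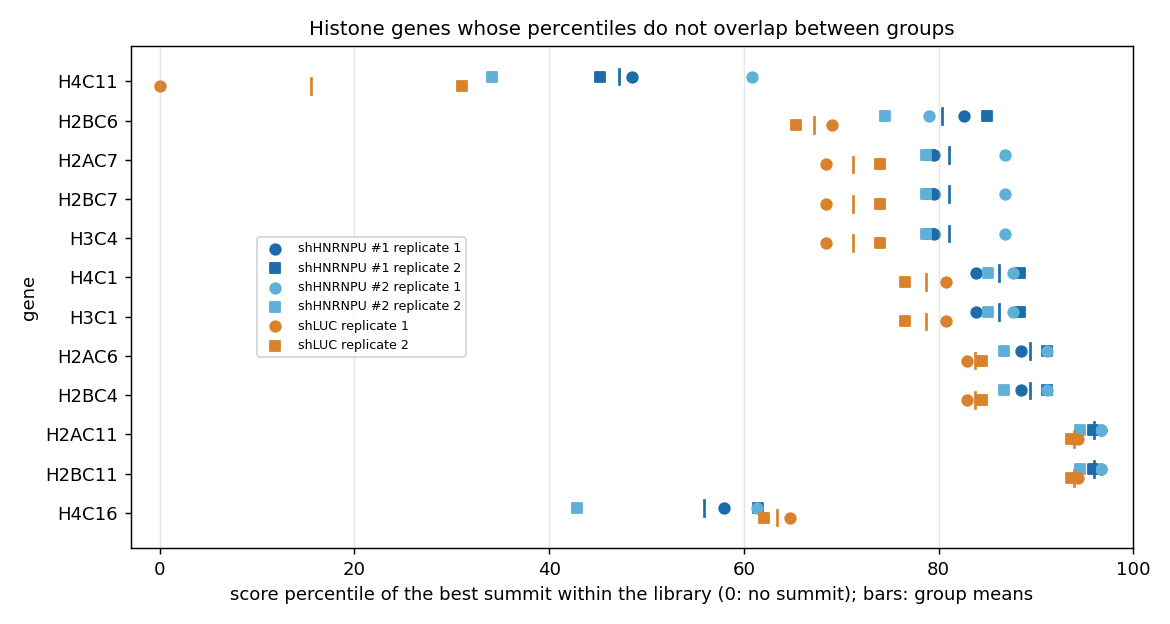
Score percentile of the best summit (x axis, 0 where no summit was called) for the 12 histone genes (y axis) whose groups did not overlap; blue points are the 4 shHNRNPU libraries (dark for hairpin #1, light for #2), orange points the 2 shLUC libraries, circles replicate 1, squares replicate 2, and short bars group means. H2BC6 shows a gap from 69.0 to 74.5 between groups, and genes with the same points share a site.

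The number of summits within 2000 bp did not separate the groups for any of the 59 members, against 1.25% of all genes with more and 1.27% with fewer in all 4 shHNRNPU libraries. Distinct summits near members numbered 54.25 ± 3.40 (n = 4) with shHNRNPU and 51.5 ± 0.707 (n = 2) with shLUC, a difference of 2.75, within the spread of the shHNRNPU libraries.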

How the data were processed

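Summits of ATAC-seq peaks were compared in 6 libraries of H1 cells, grouped by the hairpin named in each sample title. The authors deposited 1 list of summits per library, each 1 bp wide with a score read here, from its layout and lowest values, as the MACS2 −log10 q-value. Per the labels, the submitters' processing notes name cutadapt, Bowtie2, SAMtools, MACS2, deepTools and the build hg38. Versions, options and the treatment of reads with several placements are not given in the sources used here. Peaks were called per library, and scores were not normalised between libraries. The article supplied with the data describes another study, and served for style only. Depth is unknown, so no detection limit can be given.

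Here, summits were joined to protein-coding RefSeq genes, and ranked by score within each library (Python 3.11.15, numpy 2.4.6, pandas 2.3.3, matplotlib 3.10.9). Genes were called different where the 4 shHNRNPU and 2 shLUC libraries did not overlap, beside an exact two-sided permutation test over 15 assignments. Percentiles were set to 0 without a summit in tests and group means. Positions used the summit nearest the start, in place of the best-scoring one first planned. Calls were tested on simulated data in which genes lay far apart and did not share summits, so calls at shared summits were not tested. Members named were all H1 genes, those open in no library, the 5 highest and 5 lowest by mean percentile, those whose groups did not overlap (up to 10 per direction by size), and those with identical promoters. Other members named, such as H4C4 and the ends and pairs of the blocks, were chosen after their values were seen. The members and lists were chosen with earlier results of these data known. Alternatives were a minimum score of 5, lists of equal size, distances of 500 and 1000 bp, the gene start alone, assignment to the nearest gene, a replicate block, leaving out each library, and, added after seeing the data, ranks among genes. TDGF1 was not matched to the gene table.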

Additional observations from a re-analysis of the deposited data

Results flagged for a closer look

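Among the 4 shHNRNPU libraries, 29 values were tested for a library that stood apart from the other 3 by Dixon's criterion, which flags about 1 in 20 by chance (1.45 of 29), and 8 were. shHNRNPU #1 replicate 2 had 9 open members on chromosome 1 against 8 in each of the others, because it alone had a summit near H2AC19, at percentile 8.79. The same library alone had a summit near H2BC3, at 31.7. At the site shared by H3C4, H2AC7 and H2BC7, shHNRNPU #2 replicate 1 lay at 86.8 and the others at 78.7 to 79.6. At the site shared by H2BC12 and H2AC12, shHNRNPU #1 replicate 1 lay at 91.9 and the others at 94.9 to 95.5. Several of the 8 are 1 site counted for more than 1 gene. H2AC19 and H2BC3 were among the tested values because of their low mean percentiles. A gene with a summit in 1 of these libraries alone is always flagged, so the 8 cannot be set against 1.45. No cause was tested.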

How the results depend on the processing

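Of 167 recomputed differences of the 12 members whose groups did not overlap, 164 kept their sign. Giving each summit to its nearest gene alone turned H2BC7 (−31.7) and H2AC11 (−23.0), because a shared summit then moves between neighbours from library to library, and left 5 members higher by percentile (12.7% of all genes), a median difference of 2.48 and a chromosome 1 difference of 1 gene. A minimum score of 5 gave a median difference of 2.76, 5.75 more summits, 2 members lower by percentile (6.09% of all genes) and 1 (H4C11) higher by presence (0.801%) and by number (1.37%). Lists of one size gave 2.09, 0 members lower by percentile (5.62%) and 1 lower by number (0.901%). A distance of 500 bp gave 2.95, ended the calls of H3C1 (1.07), H2BC4 and H2AC6, and moved H1-5 to 19.3, with 20.4 at 1000 bp or by the start alone. Ranks among genes gave −2.19 and 3 members lower (8.72%). With the replicate block 3 of the 59 members and 1606 of the 15981 genes with a summit were lower by percentile, and 3074 of these genes were higher. Repeat differences of the hairpins correlated at −0.0489 to −0.00296 over genes. The labels do not say whether repeats of the same number share a batch, and these correlations cannot tell. Leaving out 1 library moved the median difference from −1.13 (without shLUC replicate 1) to 2.05 (without shLUC replicate 2), members lower by percentile from 1 to 7, higher from 11 to 23, higher by presence from 0 to 1, lower by number from 0 to 3 and higher by number from 0 to 4, while up to 1.83%, 5.73% and 3.77% of all genes were called so. The 7 lower were reached without either shLUC library, with 19 higher without replicate 1 (17.9% of all genes lower, 25.5% higher) and 23 without replicate 2 (17.8% and 30.3%), since 1 control library then stands alone. The causes of the other changes were not tested. Unknown depth limits any reading of missing summits.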
